A study of Homo sapiens with 16 samples.

Results

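The interferon-stimulated genes are the antiviral genes that cells switch on after an interferon signal. A set of 44 was taken by symbol, and all 44 were matched among the 64792 gene identifiers of the count table. They were followed in DU145, a prostate cancer cell line of human origin, across 16 RNA sequencing libraries. The 4 groups of 4 libraries were cells given lactate together with I-BET762, cells given lactate, cells given I-BET762, and control cells. I-BET762 is an inhibitor of BET proteins, chromatin readers whose bromodomains dock on acetyl marks. The labels give no dose or duration for either treatment, and they describe the replicates as independent. All groups come from this 1 line, and the cell line field of the samples with both treatments shows running numbers in place of DU145, so their titles were followed. The labels name no interferon treatment. The series concerns lactate, lipid metabolism and epigenetic state in prostate cancer.

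Interferons bind receptors on the cell surface, and the receptor-bound kinases JAK1 and TYK2 then phosphorylate STAT proteins. For type I interferons, a complex that contains STAT2 and IRF9 enters the nucleus and binds the interferon-stimulated response element (ISRE) in the promoters of its target genes. The products of these genes block viral entry, degrade or sequester viral RNA, detect foreign RNA, or feed back on the signal. Most cells hold a low level of this programme without any infection.

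The response elements are shown because they are what the members are known to share, and the rule that chose the members did not use them. RefSeq promoter windows on GRCh38.p14, from 250 bases before to 50 bases after the start of transcription, were found for 36 of the 44 genes. The ISRE was searched as GAAA, any 2 bases and GAAA again, on both strands, and overlapping matches were each counted. At least 1 match was present in 24 of the 36 genes (66.7%), against 1195 of 27305 genes with a window (4.38%). Among the 26 tested members with a window it was present in 18 (69.2%). The gamma-activated site, a sequence bound by STAT dimers, was searched as TTCNNNGAA, which reads the same on both strands and may share bases with the ISRE. It was present in 12 of the 36 genes (33.3%), against 9.38% of all genes with a window. A match describes the letters in a window and does not show that a factor was bound there. The 5 windows below belong to 4 members that rose under lactate and to IFI44, the member with the largest fitted difference between both treatments and lactate alone. They are printed 5′ to 3′ on the strand of the gene, and capitals mark the ISRE matches. They lie at chr1:1013247-1013546 (plus strand) for ISG15, chr1:27672143-27672442 (minus strand) for IFI6, chr15:88638766-88639065 (plus strand) for ISG20, chr10:89392373-89392672 (plus strand) for IFIT1 and chr1:78649539-78649838 (plus strand) for IFI44.
ISG15: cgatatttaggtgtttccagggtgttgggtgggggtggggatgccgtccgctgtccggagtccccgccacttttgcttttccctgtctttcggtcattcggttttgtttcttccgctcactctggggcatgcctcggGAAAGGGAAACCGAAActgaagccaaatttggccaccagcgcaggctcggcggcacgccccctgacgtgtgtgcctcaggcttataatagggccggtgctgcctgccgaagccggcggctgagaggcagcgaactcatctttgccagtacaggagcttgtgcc
IFI6: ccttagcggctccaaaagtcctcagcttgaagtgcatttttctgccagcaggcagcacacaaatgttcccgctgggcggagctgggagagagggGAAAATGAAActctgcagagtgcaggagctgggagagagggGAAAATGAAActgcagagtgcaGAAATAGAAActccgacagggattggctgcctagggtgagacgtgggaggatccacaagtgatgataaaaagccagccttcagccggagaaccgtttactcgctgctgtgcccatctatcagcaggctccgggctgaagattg
ISG20: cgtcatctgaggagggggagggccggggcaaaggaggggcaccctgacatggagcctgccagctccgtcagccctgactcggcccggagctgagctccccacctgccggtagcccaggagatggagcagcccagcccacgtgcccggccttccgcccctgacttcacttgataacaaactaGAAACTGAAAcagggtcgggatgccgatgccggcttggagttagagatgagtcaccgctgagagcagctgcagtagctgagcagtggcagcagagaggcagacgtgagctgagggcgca
IFIT1: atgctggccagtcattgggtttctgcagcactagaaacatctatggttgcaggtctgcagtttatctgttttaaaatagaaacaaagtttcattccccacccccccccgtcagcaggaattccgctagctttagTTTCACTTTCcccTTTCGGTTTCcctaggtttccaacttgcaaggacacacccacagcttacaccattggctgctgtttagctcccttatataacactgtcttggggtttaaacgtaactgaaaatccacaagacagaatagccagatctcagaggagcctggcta
IFI44: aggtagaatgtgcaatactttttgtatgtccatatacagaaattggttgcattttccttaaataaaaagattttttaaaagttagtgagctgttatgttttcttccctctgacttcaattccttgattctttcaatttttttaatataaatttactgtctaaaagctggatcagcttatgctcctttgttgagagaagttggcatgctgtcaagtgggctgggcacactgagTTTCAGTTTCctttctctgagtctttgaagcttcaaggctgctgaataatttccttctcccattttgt
ISG15 holds 2 overlapping matches in 1 run, IFI6 holds 3 separate ones, and IFIT1 holds 2 on the other strand. ISG20 holds 1 match and IFI44 holds 1, on the other strand. Of the 7 members that rose under lactate, 6 had a window and 5 of these held a match. The exception was IFI35, and OASL had no window.

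A test was possible for 32 of the 44 members. Total counts per library ranged from 10711859 to 17173584, and 14690 genes passed a filter on low counts that corresponds to about 0.69 CPM, the count scaled to the size of the library. The filter did not rest on the lactate group, since each of the 32 exceeded that level in at least 4 libraries outside it. Of the 12 members left out, 9 had between 6 and 62 counts in all 16 libraries together. These 9 were BST2 and IFITM1, which act at membranes, RSAD2 and CMPK2, which alter nucleotides, and IFI44L, XAF1, TRIM22, EPSTI1 and SAMD9L. None of them exceeded 12 counts in a library. IFITM1 lies within the span of IFITM2 on the same strand, which leaves its low counts uncertain.

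The other 3 untested members, IRF7, IRF9 and IFI27, are listed at 0 in every library. IRF9 is part of the complex that binds the ISRE, and IRF7 amplifies the production of interferon. The zeros are not read as absence. IRF9 stands in a stretch of 36 neighbouring protein-coding genes that are all listed at 0, among them PSME1, NEDD8 and IPO4, which every cell uses. IFI27 stands in a stretch of 22 such genes that includes DDX24, and IRF7 in a stretch of 5. Over the table, 3772 of 19951 protein-coding genes (18.9%) are listed at 0.

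Levels between genes were compared per kilobase of exon, on group means of CPM. In control cells the 32 tested members ranged from 0.137 to 16.4 CPM per kb, with a median of 5.36. IFITM3, which blocks the fusion of viruses with endosomes, stood highest at 16.4 CPM per kb. It was followed by UBE2L6, the conjugating enzyme for ISG15, at 15.9 CPM per kb and by STAT2 at 13.7 CPM per kb. MX2 (0.137), OAS2 (0.139) and OAS1 (0.341) were the lowest in CPM per kb. ISG15 stood at 40.4 CPM per kb under lactate, which was the highest level of any tested member in that group, and at 8.64 CPM per kb in control.

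The inhibitor labels and the cell type were examined before the comparisons. HEXIM1, a brake on transcription elongation known to rise under BET inhibitors, goes against the labels of 1 control library and 1 I-BET762 library. It had 89.6 CPM in the library labelled I-BET762 replicate 2, against 113.3 to 148.8 CPM in the other I-BET762 libraries. In the library labelled control replicate 2 it had 135.1 CPM, against 70.0 to 77.4 CPM in the other controls. Labels were kept as given, and directions drawn from these groups rest on them. Counts for the comparisons that use these 2 doubted libraries are also given without them. Lactate replicates 1 and 4 stood apart by exon length. Over all tested genes, the log2 CPM of a library minus the gene's mean over the 16 libraries was ranked against exon length. The rank correlation (Spearman's rho) was -0.40 and -0.42 in those 2, against 0.24 and 0.10 in lactate replicates 2 and 3. Ranked against GC content instead, rho ran from -0.55 to -0.30 in control and from -0.02 to 0.32 with lactate. It ran from -0.18 to 0.17 with I-BET762 and from 0.06 to 0.43 with both treatments. Epithelial markers of DU145 summed to 2299 to 3094 CPM with both treatments, 2098 to 3349.9 CPM with lactate, 2301 to 2494 CPM with I-BET762 and 1899.8 to 2458 CPM in control, with KRT5 listed at 0. The epithelial keratins KRT8 (0.49, edgeR adjusted p = 0.0151) and KRT19 (0.76, adjusted p = 0.00891) passed the test under lactate, and KRT8 with both treatments against control (0.55, adjusted p = 0.00816). Of 7 leukocyte markers, 2 were tested and CD3E was listed at 0. They summed to 2.27 to 2.98 CPM with both treatments, 2.83 to 4.17 CPM with lactate, 1.01 to 2.84 CPM with I-BET762 and 1.05 to 2.88 CPM in control, and the leukocyte marker CD68 passed the test under lactate (1.12, edgeR adjusted p = 0.0223). Fibroblast markers summed to 5.23 to 10.3 CPM with both treatments, 5.19 to 8.86 CPM with lactate, 4.70 to 7.99 CPM with I-BET762 and 3.94 to 4.89 CPM in control, with DCN listed at 0 and COL1A1 past the test under lactate (0.82) and with both treatments (0.92) against control. Luminal prostate markers summed to 26.0 to 41.4 CPM over all libraries and endothelial markers to 0.373 to 2.14 CPM. Their part in the results below was not tested, and in bulk RNA fewer cells of a type and less RNA per cell cannot be told apart.

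**Figure D1:**
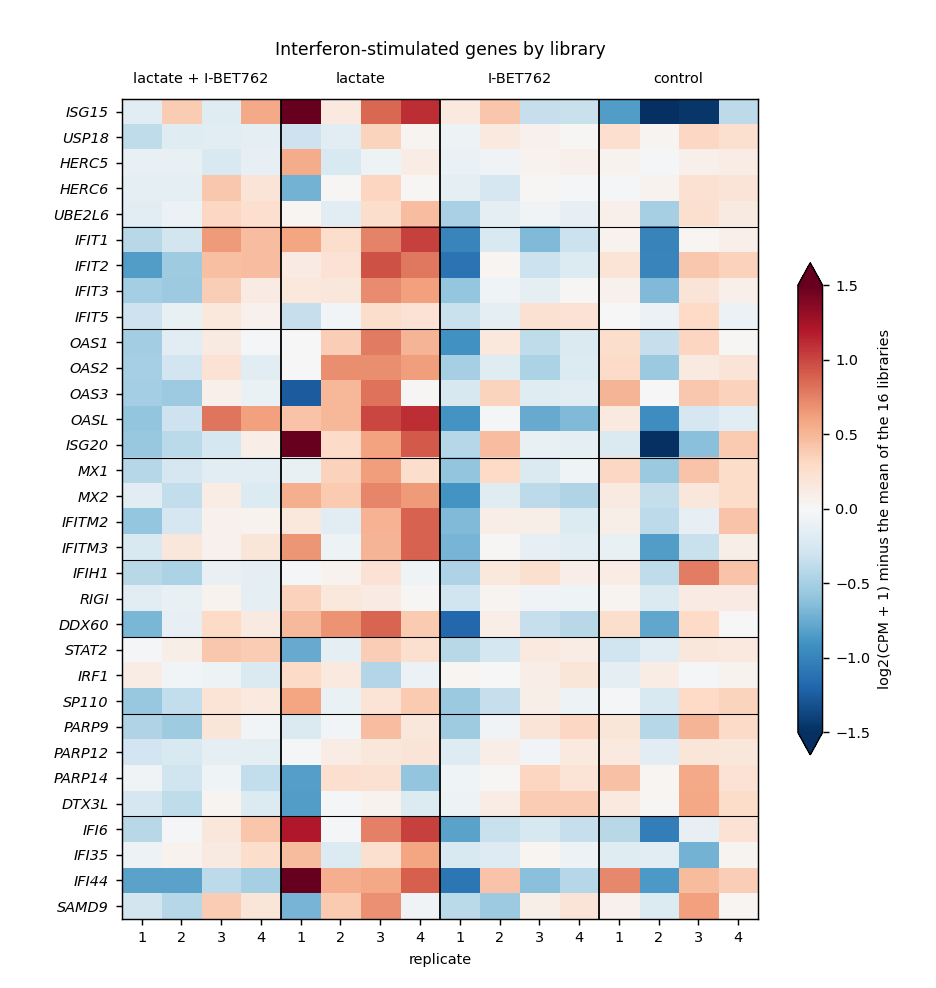
Each row is 1 of the 32 tested genes and each column 1 library. Colour gives log2(CPM + 1) minus the mean of the 16 libraries, with red above and blue below it and values beyond 1.5 shown at the end of the scale. Lactate replicate 3 is above the mean for 30 of the 32 genes, and control replicate 2 is below it for 27.

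The first comparison asked what lactate did to these genes. A subset of them rose, 7 of 32, led by the ubiquitin-like protein ISG15 with a log2 fold change of 2.21. The others were the membrane protein IFITM3, the nuclease ISG20, the RNA binder IFIT1, the OAS-like protein OASL, and IFI6 and IFI35. No member fell in the edgeR test reported here. DTX3L, described below, passed as lower in DESeq2 and under other edgeR settings with all libraries. The remaining 25 did not pass the test. These include STAT2, a part of the complex that binds the ISRE, all RNA sensors and PARP genes of the set, and OAS1, OAS2 and OAS3. In edgeR's quasi-likelihood test over all 14690 genes, 7 of 32 is 21.9% of members called higher, against 13.6% of all tested genes. The members called lower were 0, against 10.1% of all tested genes. At an unadjusted p under 0.05 there were 11 higher (34.4%, against 21.6% of all tested genes) and 2 lower (6.25%, against 17.9%). Their median log2 fold change was 0.17, against 0.03 for all tested genes. The libraries of both groups did not overlap for 5 members, all higher under lactate (15.6%, against 10.9% of all tested genes), and 0 were lower without overlap (against 9.12%). The tests measure the spread between these samples.

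ISG15 is conjugated to proteins during infection and is also secreted. Its gene (ENSG00000187608) spans 1001138 to 1014540 on the plus strand of chromosome 1 (GENCODE release 29, GRCh38). It had 62.0, 19.3, 32.2 and 38.4 CPM in the lactate libraries, against 9.28, 4.63, 5.65 and 12.98 CPM in the control libraries. Every lactate library stood above every control library, and lactate replicate 1 was the highest of all. The means were 38.0 ± 17.9 CPM with lactate and 8.13 ± 3.80 CPM in control (SD, n = 4 each). The log2 fold change was 2.21 (SE 0.35, edgeR adjusted p = 0.000842). This call held in all 20 alternatives of processing, between 1.36 and 2.53 on the log2 scale. The rest of the ISG15 system did not pass the test. USP18, the protease that removes ISG15 from proteins and damps the interferon receptor, had a log2 fold change of -0.22. The ISG15 ligase HERC5, its relative HERC6 and the enzyme UBE2L6 had log2 fold changes of 0.06, -0.16 and 0.16.

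**Figure D2:**
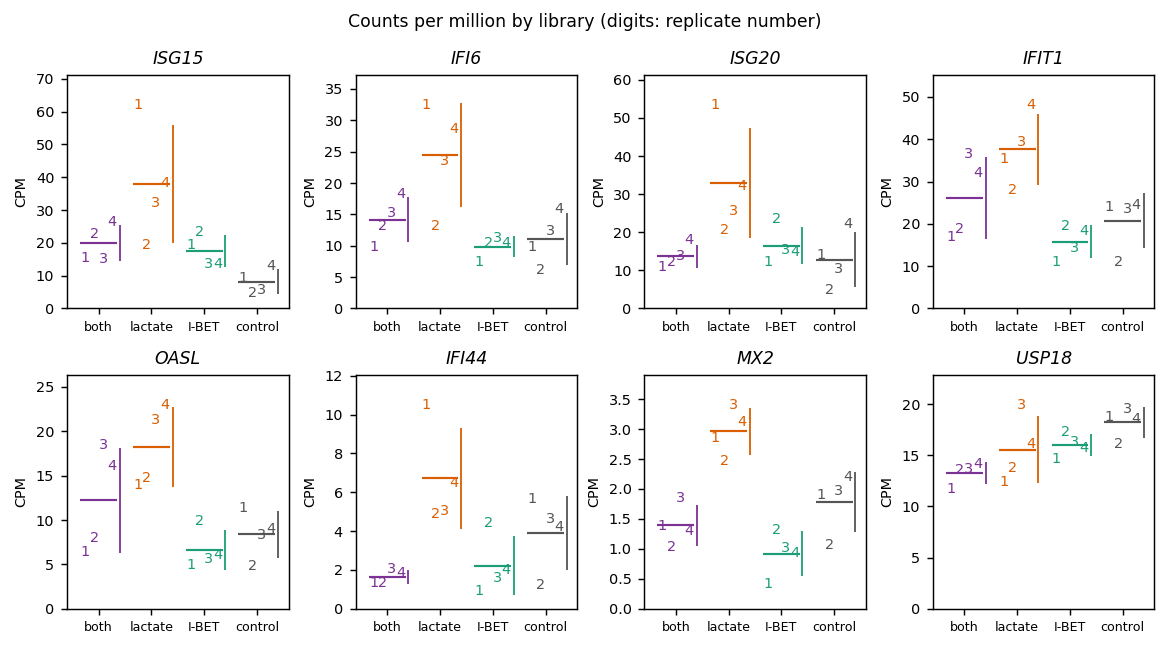
CPM (vertical axis, from 0) of 8 members in libraries given both treatments, lactate, I-BET762 (I-BET) and control. Digits are the replicate numbers, the horizontal line is the mean and the vertical line the SD over 4 replicates. ISG15 lies higher in every treated library than in every control library, and IFI44 and MX2 lie lower with both treatments than with lactate.

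Effectors that bind or cut RNA were divided. IFIT1, which binds the 5′ end of foreign RNA, had 35.3, 28.0, 39.3 and 48.1 CPM with lactate, against 23.96, 11.001, 23.6 and 24.4 CPM in control. The groups did not overlap, and control replicate 2 was far below the other controls. Its log2 fold change was 0.86 (SE 0.28, edgeR adjusted p = 0.0338). Leaving out a single library ended the call in 3 cases: control replicate 2 (0.65, adjusted p = 0.0886), control replicate 3 (0.92, adjusted p = 0.0601) and lactate replicate 4 (0.72, adjusted p = 0.107). The relatives IFIT2, IFIT3 and IFIT5 did not pass (0.50, 0.50 and 0.01). IFIT1, IFIT2 and IFIT3 lie within the span of LIPA on the opposite strand, and the strand setting of the counting is not given. LIPA itself averaged 217.9 CPM with lactate and 226.6 CPM in control (log2 fold change -0.06, edgeR adjusted p = 0.789).

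Among the OAS family, whose enzymes make the signal that activates RNase L, OASL was the member that passed. OASL itself lacks that activity and is known to enhance RNA sensing. It had 13.9, 14.8, 21.3 and 22.9 CPM with lactate, against 11.3, 4.86, 8.34 and 9.01 CPM in control, with no overlap (log2 fold change 1.12, SE 0.33, edgeR adjusted p = 0.0213). Its call was lost without control replicate 2 (adjusted p = 0.0619), control replicate 3 (adjusted p = 0.057) or lactate replicate 4 (adjusted p = 0.0679). OAS1 had 1.53, 2.27, 3.34 and 2.605 CPM with lactate, against 2.03, 0.986, 2.17 and 1.56 CPM in control. The groups overlapped and OAS1 did not pass (0.54), nor did OAS2 (0.89, edgeR adjusted p = 0.113) or OAS3 (-0.12). ISG20, an exonuclease that degrades single-stranded RNA, had 53.4, 20.5, 25.7 and 32.2 CPM with lactate, against 14.1, 4.78, 10.4 and 22.1 CPM in control. Control replicate 4 exceeded lactate replicate 2, so the groups overlapped, while the means were 32.9 ± 14.4 CPM with lactate and 12.8 ± 7.25 CPM in control (SD, n = 4 each). Its log2 fold change was 1.35 (SE 0.36, edgeR adjusted p = 0.0143), and without control replicate 3 the adjusted p was 0.0505.

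Of the membrane effectors and MX GTPases, IFITM3 rose. It had 42.8, 25.3, 38.4 and 50.02 CPM with lactate, against 24.6, 14.5, 21.0 and 28.3 CPM in control (log2 fold change 0.82, SE 0.22, edgeR adjusted p = 0.0143). Only lactate replicate 2 lay within the range of the controls, and the call was lost without lactate replicate 4 (0.68, adjusted p = 0.0554). Its counts are uncertain, since IFITM2 and IFITM3 are near-identical. IFITM2 had a log2 fold change of 0.38 and did not pass. MX1, a GTPase that traps viral capsids, had 18.9, 26.4, 32.2 and 24.9 CPM with lactate, against 25.7, 13.7, 28.0 and 25.1 CPM in control. The groups overlapped widely and its log2 fold change of 0.15 did not pass. MX2, its nuclear relative, was singled out after its values were seen. It had 2.85, 2.47, 3.40 and 3.13 CPM with lactate, against 1.91, 1.06, 1.97 and 2.20 CPM in control. The groups did not overlap, but its log2 fold change of 0.73 (SE 0.27) had an edgeR adjusted p of 0.0617.

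Of the remaining induced genes, IFI6 and IFI35 rose. IFI6, a mitochondrial and endoplasmic reticulum protein, had 32.4, 13.2, 23.6 and 28.6 CPM with lactate, against 9.85, 6.07, 12.3 and 15.9 CPM in control (log2 fold change 1.14, SE 0.29, edgeR adjusted p = 0.0104). Lactate replicate 2 lay among the controls and the other 3 lactate libraries above them. The call held without any 1 library. IFI35, a leucine zipper protein, had 23.6, 14.4, 19.9 and 25.6 CPM with lactate, against 14.6, 14.7, 9.79 and 17.23 CPM in control (log2 fold change 0.57, SE 0.18, edgeR adjusted p = 0.0327). Its call was the least firm of the 7, lost in 11 of 20 alternatives, and its adjusted p was 0.0602, 0.0536 and 0.11 without control replicates 1, 2 and 3 and 0.0563 and 0.113 without lactate replicates 1 and 4. IFI44 had a log2 fold change of 0.75 (edgeR adjusted p = 0.182) and SAMD9, which restricts poxviruses, of 0.03.

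Sensors, transcription factors and the PARP genes did not pass under lactate in the edgeR test reported here. The RNA sensors RIGI and IFIH1 had log2 fold changes of 0.15 and -0.26, and the helicase DDX60 of 0.66 (edgeR adjusted p = 0.0983) with groups that did not overlap. Among the alternatives, DDX60 passed in limma alone (0.75, adjusted p = 0.0422). STAT2 had 49.6, 77.3, 109.7 and 100.1 CPM with lactate, against 68.8, 75.7, 95.4 and 93.8 CPM in control (log2 fold change 0.02). IRF1, the factor that drives interferon-gamma responses, had 59.4, 53.9, 35.6 and 45.5 CPM with lactate, against 44.1, 52.3, 47.7 and 50.2 CPM in control (log2 fold change -0.00). Both sets of libraries overlapped throughout. The ubiquitin ligase DTX3L and the ADP-ribosyltransferase PARP14, singled out after their values were seen, had the lowest fitted values. DTX3L had 16.8, 30.0, 31.8 and 26.6 CPM with lactate, against 34.0, 31.0, 46.3 and 37.4 CPM in control (log2 fold change -0.50, edgeR adjusted p = 0.056). Only lactate replicate 3 lay within the controls, and DTX3L passed once control replicate 2 (adjusted p = 0.0487), lactate replicate 2 (0.0383) or lactate replicate 3 (0.0324) was left out. With all libraries it passed as lower in DESeq2 (-0.50, adjusted p = 0.0353) and in edgeR with no filter on low counts (-0.51, adjusted p = 0.0499). PARP14 stood at -0.49 (edgeR adjusted p = 0.089). Its adjusted p was 0.0245 and 0.0342 without lactate replicates 2 and 3. PARP9 overlaps DTX3L on the opposite strand, which leaves the counts of that pair uncertain. PARP9 (-0.06) and PARP12 (0.02) did not pass.

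The members that rose under lactate were shorter and richer in GC than the others. Their median exon length was 1973 bp and their median GC content 56.1%, against 5868 bp and 44.3% for the other 25 tested members and 4694 bp and 48.1% for all tested genes. Ranked over the 32 members, exon length and the log2 fold change under lactate had a Spearman's rho of -0.39, against -0.34 over all tested genes. For GC content rho was 0.27 over the members, against 0.43 over all tested genes. These points share their libraries, and each rho is a description. Taken library by library against the control mean, rho of exon length over the members was -0.47, -0.04, -0.31 and -0.56 in lactate replicates 1 to 4. Without lactate replicates 1 and 4, chosen after seeing the data, ISG15 stood at 1.67 and OASL at 1.11, both past the test. IFIT1, ISG20, IFITM3, IFI6 and IFI35 then stood at 0.70, 0.85, 0.53, 0.74 and 0.30 and did not pass (edgeR adjusted p between 0.0947 and 0.268). After an offset for GC content, IFITM3 (adjusted p = 0.0687) and IFI35 (adjusted p = 0.301) lost their calls. Of all 14690 genes, edgeR then called 891 higher and 1382 lower, against 2003 and 1483 without the offset. With the lactate and control libraries fitted alone, 2 of the 7 calls remained. The part of length, GC content or these libraries in the rise was not tested beyond these values.

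**Figure D3:**
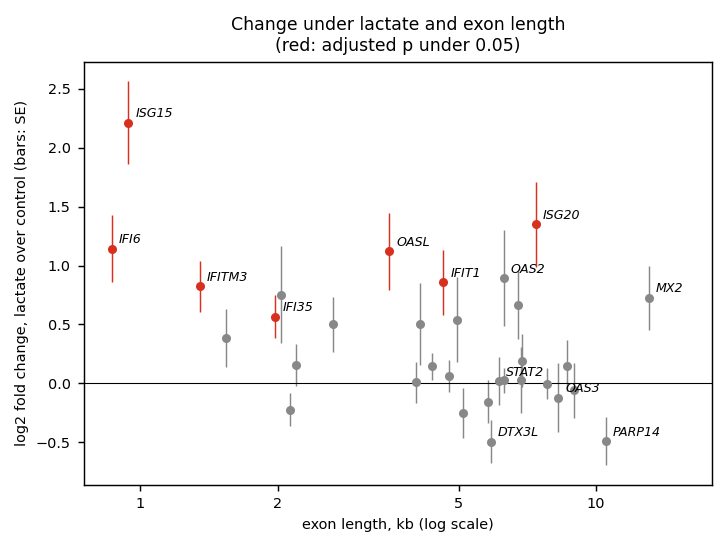
Log2 fold change of lactate over control (vertical axis, bars are SE) against exon length in kilobases (horizontal axis, log scale) for the 32 tested genes. Red marks the 7 genes past the test, whose median exon length of 1973 bp compares with 5868 bp for the others, shown in grey.

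The effect of the inhibitor in cells that also had lactate was examined next. With both treatments, 29 of the 32 members had a lower fitted level than with lactate alone (90.6%, against 50.1% of all tested genes), but none passed the test. The largest differences were those of IFI44, OAS2, ISG20 and MX2 with log2 fold changes of -2.02, -1.40, -1.26 and -1.09. In this comparison edgeR called 0 of all 14690 genes in either direction, so the members' 0 higher and 0 lower stand against 0% and 0%. At an unadjusted p under 0.05 there were 14 members lower (43.8%, against 9.19% of all tested genes) and 0 higher (against 6.43%). The groups did not overlap for 7 members, all lower with both treatments (21.9%, against 3.78% of all tested genes), and 0 were higher without overlap (against 3.82%). The median log2 fold change was -0.45, against -0.00 for all tested genes. DESeq2 called 2 members lower, IFI44 and MX2, against 71 of all 14690 genes. In limma 5 were lower, namely IFI44, MX2, MX1, OAS2 and OAS3, against 78 of all 14690 genes.

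IFI44 is a cytoplasmic protein with a GTP-binding motif (ENSG00000137965, chromosome 1, 78649796 to 78664078, plus strand, GENCODE release 29 on GRCh38). It had 1.31, 1.31, 2.06 and 1.84 CPM with both treatments, against 10.5, 4.88, 5.04 and 6.48 CPM with lactate. Every library with both treatments stood below every lactate library, and the log2 fold change was -2.02 (SE 0.45, unadjusted p = 0.000293 and edgeR adjusted p = 0.221). Without the 2 doubted libraries, which enter only through the shared spread, it stood at -2.01 with an edgeR adjusted p of 0.00926. MX2 had 1.38, 1.04, 1.86 and 1.30 CPM with both treatments, against the lactate values of 2.47 to 3.40 CPM (log2 fold change -1.09, edgeR adjusted p = 0.222). ISG20 had 10.9, 12.3, 13.7 and 17.97 CPM with both treatments, against 20.5 to 53.4 CPM with lactate, and did not overlap (-1.26, edgeR adjusted p = 0.227). MX1 had 14.99, 17.16, 18.2 and 18.4 CPM with both treatments, against 18.9 to 32.2 CPM with lactate, again without overlap (-0.58, edgeR adjusted p = 0.279). The other 3 members without overlap were IFIH1, DDX60 and PARP12.

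ISG15 had 15.5, 22.8, 15.1 and 26.2 CPM with both treatments, against 19.3 to 62.0 CPM with lactate. The groups overlapped through lactate replicate 2, and the log2 fold change was -0.93 (edgeR adjusted p = 0.273). IFI6 and IFITM3 overlapped likewise (-0.78 and -0.50). OAS2 had 0.275, 0.484, 1.10 and 0.615 CPM with both treatments, against 0.813, 1.92, 1.92 and 1.79 CPM with lactate, where replicate 1 was low (-1.40, edgeR adjusted p = 0.231). The other 3 members had a higher fitted level (9.38%, against 49.9% of all tested genes) and did not pass. STAT2 had 83.2, 90.4, 112.3 and 110.6 CPM with both treatments, against 49.6 to 109.7 CPM with lactate, and the groups overlapped (0.23), and HERC6 and DTX3L stood at 0.14 and 0.02. Without lactate replicates 1 and 4, chosen after seeing the data, ISG15 stood at -0.38, ISG20 at -0.75, IFI6 at -0.38 and IFITM3 at -0.21. IFI44 then stood at -1.60, MX2 at -1.08, OAS2 at -1.63 and MX1 at -0.77. STAT2, HERC6 and DTX3L stood at 0.08, -0.09 and -0.21, and edgeR called 0 of all tested genes.

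**Figure D4:**
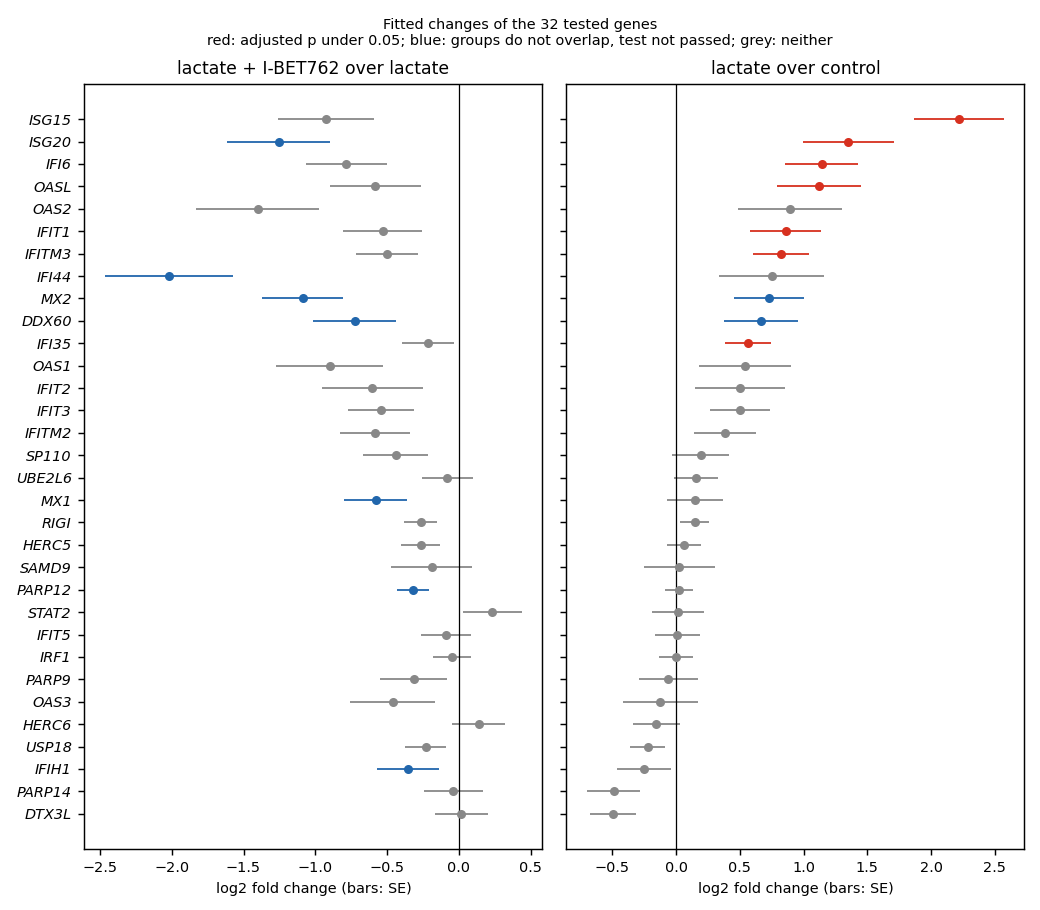
Fitted log2 fold changes (points) with SE (bars) of the 32 tested genes, for lactate + I-BET762 over lactate (left panel) and lactate over control (right panel), ordered by the right panel. Red marks the 7 genes past the test, and blue the genes whose libraries do not overlap but which did not pass. In the left panel 29 of 32 points lie below 0.

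I-BET762 alone was compared with control to see what the inhibitor did without lactate. Under the labels as given no member passed the test, while 27 of 32 had a lower fitted level (84.4%, against 57% of all tested genes) and 5 a higher one (15.6%, against 43%). In edgeR 0 members were called higher (0.442% of all tested genes were) and 0 lower (0% of all tested genes were). At an unadjusted p under 0.05, ISG15 was higher (3.12%, against 9.31% of all tested genes) and MX2 and OAS2 were lower (6.25%, against 2.14%). The median log2 fold change was -0.19, against -0.03 for all tested genes. DESeq2 called ISG15 higher, as it did 515 of all 14690 genes. In limma IFI44, OAS3 and MX2 were lower, as were 443 of all 14690 genes.

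ISG15 had 19.4, 23.4, 13.4 and 13.6 CPM with I-BET762, against 9.28, 4.63, 5.65 and 12.98 CPM in control. All 4 treated libraries stood above all controls, which 7.73% of all tested genes also showed (log2 fold change 1.09, SE 0.35, edgeR adjusted p = 0.144). Without control replicate 4 the log2 fold change was 1.45 (edgeR adjusted p = 0.0487). Without the 2 doubted libraries it was 0.73 (SE 0.38, adjusted p = 0.405), and after an offset for GC content 0.55 (adjusted p = 0.927). MX2 had 0.415, 1.32, 1.01 and 0.932 CPM with I-BET762, against 1.91, 1.06, 1.97 and 2.20 CPM in control (-0.96, edgeR adjusted p = 0.14). Control replicate 2 lay among the I-BET762 libraries and the other 3 controls above them. IFI44 had 0.899, 4.40, 1.604 and 1.99 CPM with I-BET762, against 5.66, 1.21, 4.60 and 4.18 CPM in control (-0.84, edgeR adjusted p = 0.518). Here the library labelled I-BET762 replicate 2 lay among the controls, and that labelled control replicate 2 lay among the I-BET762 libraries.

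Those 2 libraries stood at the ends of their own groups for much of the set. Control replicate 2 was the lowest control for 27 of 32 members (84.4%, against 30.4% of all tested genes), and I-BET762 replicate 2 the highest of its group for 16 (50%, against 31.6%). Both held at once for 16 members (50%, against 14.2% of all tested genes). These counts rank each library within its own group and do not place it among the libraries of the other group. HEXIM1 stands in the opposite places in both libraries, as given above. Without both libraries, edgeR still called 0 members, but the median log2 fold change was -0.33 and 10 members were lower at an unadjusted p under 0.05 (31.2%, against 5.67% of all tested genes). IFI44 then stood at -1.67 (SE 0.34, edgeR adjusted p = 0.057), MX2 at -1.34 (SE 0.30, adjusted p = 0.0674), OAS2 at -1.497 (SE 0.47, adjusted p = 0.137) and MX1 at -0.65 (SE 0.18, adjusted p = 0.105). In lactate against control, 4 members passed without them, ISG15 (2.02), ISG20 (1.08), IFI6 (0.94) and IFITM3 (0.66), all higher (12.5%, against 10.6% of all tested genes). Swapped labels were not assumed, and no library was moved between groups. I-BET762 replicate 1 also stood out, as the lowest of its group for 28 of 32 members (87.5%, against 27.6% of all tested genes).

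**Figure D5:**
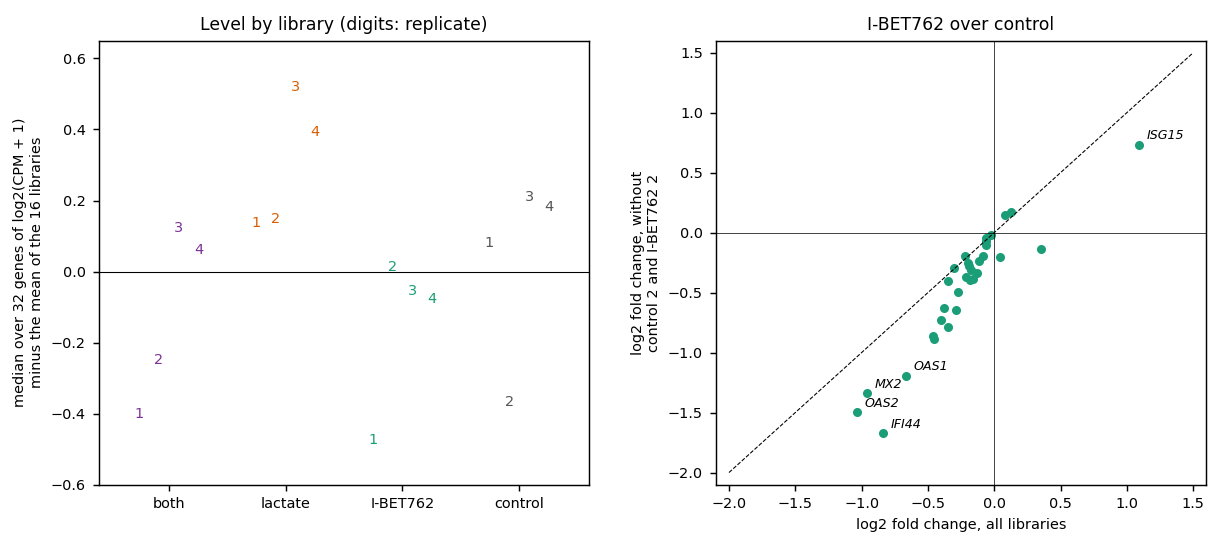
Left, the median over the 32 tested genes of log2(CPM + 1) minus the mean of the 16 libraries, for each library (digits are replicate numbers). Right, log2 fold changes of I-BET762 over control without (vertical axis) and with (horizontal axis) the doubted libraries of control and I-BET762 (each replicate 2), with a dashed line of equality. Control replicate 2 and I-BET762 replicate 1 lie lowest on the left at -0.37 and -0.47 together with replicate 1 of both treatments at -0.40.

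Levels of the set also differed between replicates given the same treatment. The median deviation of the 32 members, in log2(CPM + 1) from the mean of the 16 libraries, was -0.40, -0.25, 0.12 and 0.06 in replicates 1 to 4 of both treatments and 0.14, 0.15, 0.52 and 0.39 in those of lactate. It was -0.47, 0.01, -0.05 and -0.08 in the I-BET762 libraries and 0.08, -0.37, 0.21 and 0.18 in the controls. The median over all tested genes stayed between -0.01 and 0.01 in every library. All 4 lactate libraries lay above 0. Replicates 3 and 4 lay above replicates 1 and 2 with both treatments, with lactate and in control. With I-BET762, replicate 2 (0.01) lay above replicates 3 and 4. The cause of this split was not tested. Replicate 3 of both treatments was the highest of its group for 21 of 32 members (65.6%, against 27.8% of all tested genes). IFIT1 shows this spread, with 16.98, 18.9, 36.5 and 32.04 CPM across replicates 1 to 4 of both treatments.

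Lactate was also compared in the presence of the inhibitor, between both treatments and I-BET762 alone. No member passed the test, against 3.34% of all tested genes called higher and 1.57% called lower, and the median log2 fold change was 0.10 against 0.00 for all tested genes. At an unadjusted p under 0.05, IFIT1 and OASL were higher (6.25%, against 11.1% of all tested genes) and DTX3L was lower (3.12%, against 8.42%) in edgeR. USP18 (-0.27) and HERC5 (-0.14) were lower without overlap (6.25%, against 11.3%). DESeq2 called 0 members and limma called 6, of which OASL was higher (3.12%, against 16.7% of all tested genes in limma) and 5 were lower (15.6%, against 14.2%). OASL had 6.39, 7.96, 18.4 and 16.1 CPM with both treatments, against 4.98, 9.90, 5.58 and 6.03 CPM with I-BET762 (log2 fold change 0.89, SE 0.33, edgeR adjusted p = 0.137). Replicates 3 and 4 of both treatments stood above every I-BET762 library, and replicates 1 and 2 among them. ISG15 had a log2 fold change of 0.19 and IFI44 of -0.43 in this comparison. Without the 2 doubted libraries edgeR still called 0 members, with ISG15 at 0.37 (adjusted p = 0.647) and OASL at 1.14 (adjusted p = 0.0744). IFI44, which had not passed, then changed sign to 0.11 (adjusted p = 0.909).

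Both treatments together were set against control as well, with 1 member higher and 1 lower. ISG15 rose and its protease USP18 fell. In edgeR the members called higher were 1 of 32 (3.12%, against 13% of all tested genes) and those called lower 1 of 32 (3.12%, against 7.72%). At an unadjusted p under 0.05, 1 was higher (against 19%) and 6 were lower (18.8%, against 14.9%). Without overlap, 1 was higher (against 16.5%) and 3 were lower (9.38%, against 14.8%), namely USP18, HERC5 and PARP14. The median log2 fold change was -0.14, against -0.01 for all tested genes. ISG15 had 15.5, 22.8, 15.1 and 26.2 CPM with both treatments, against 4.63 to 12.98 CPM in control, without overlap (log2 fold change 1.29, SE 0.35, edgeR adjusted p = 0.0155). Without control replicate 3 its adjusted p was 0.0612, without replicate 4 of both treatments 0.0568, and after an offset for GC content it stood at 0.55 (adjusted p = 0.28). USP18 had 11.7, 13.6, 13.7 and 14.1 CPM with both treatments, against 18.7, 16.1, 19.5 and 18.5 CPM in control, without overlap (log2 fold change -0.46, SE 0.14, edgeR adjusted p = 0.0288). Its means were 13.3 ± 1.08 CPM with both treatments and 18.2 ± 1.47 CPM in control (SD, n = 4 each). The call was lost in 7 of 19 alternatives, and its adjusted p was 0.0658, 0.0851 and 0.085 without control replicates 1, 3 and 4 and 0.0855, 0.0617 and 0.0534 without replicates 1, 2 and 4 of both treatments.

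Without the library labelled control replicate 2, 6 members passed in this comparison, 1 higher (3.12%, against 12.6% of all tested genes) and 5 lower (15.6%, against 8.14%). IFI44 then stood at -1.56 (edgeR adjusted p = 0.012), the sensor IFIH1 at -0.79 (adjusted p = 0.00872), MX1 at -0.61 (adjusted p = 0.034) and PARP12 at -0.37 (adjusted p = 0.0215), beside ISG15 and USP18. With all libraries they stood at -1.27 (adjusted p = 0.056), -0.61 (adjusted p = 0.0513), -0.43 (adjusted p = 0.18) and -0.29 (adjusted p = 0.067). PARP14 had 50.9, 42.8, 50.6 and 40.8 CPM with both treatments, against 72.0, 54.2, 79.1 and 61.6 CPM in control, and did not overlap (-0.53, edgeR adjusted p = 0.0793). The count of members past the test by alternative ran from 0, without control replicate 3 or replicate 4 of both treatments, to 10 in limma. Over all tested genes 11.5% and 12% were called in those left-out cases and 39.3% in limma.

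The interaction asked whether the effect of lactate differed between cells with and without the inhibitor. No member passed in edgeR, and neither did any of the 14690 genes in either direction (0% and 0%). At an unadjusted p under 0.05, ISG15 and ISG20 were negative, meaning a smaller change under lactate in the presence of I-BET762 (2 of 32, 6.25%, against 4.86% of all tested genes), and 0 were positive (against 1.23%). ISG15 had an interaction of -2.02 (SE 0.48, unadjusted p = 0.000606, edgeR adjusted p = 0.70) and ISG20 of -1.61 (unadjusted p = 0.00548, adjusted p = 0.70). Without the 2 doubted libraries they stood at -1.66 (SE 0.49, unadjusted p = 0.00438, adjusted p = 0.912) and -1.12 (unadjusted p = 0.0199, adjusted p = 0.912), and no member passed. DESeq2 and limma called 0 and 0 members. With no filter on low counts, ISG15 passed (-1.96, edgeR adjusted p = 0.00249). Under the filter, the effect of lactate was not shown to differ between cells with and without the inhibitor for any member.

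The pathway that feeds these genes was described with lists outside the 44. Their counts stand against 13.6% of all tested genes called higher and 10.1% called lower under lactate, and 13% and 7.72% with both treatments against control. Of 9 receptors and kinases, 8 were tested, and under lactate 1 fell and none rose. The kinase JAK1 averaged 105.0 ± 28.3 CPM with lactate and 145.8 ± 10.6 CPM in control (SD, n = 4 each; log2 fold change -0.47, edgeR adjusted p = 0.0385). That call was lost without any 1 control library (adjusted p between 0.0573 and 0.0961), lactate replicate 1 (0.0602) or lactate replicate 4 (0.104). IFNAR1, the signalling chain of the type I receptor, stood at -0.26 (edgeR adjusted p = 0.13). With both treatments against control, TYK2 rose, averaging 122.3 ± 14.999 CPM with both treatments and 74.0 ± 9.04 CPM in control (0.73, edgeR adjusted p = 0.0118). It stood at 0.16 after an offset for GC content, and its adjusted p was 0.0508 without control replicate 3. Of 7 interferon genes 1 was tested. IFNE, the interferon of epithelia, averaged 0.840 ± 0.338 CPM with lactate and 0.788 ± 0.413 CPM in control (SD, n = 4 each). IFNB1 had 3 counts over all libraries, and IFNG, IFNK, IFNL1, IFNL2 and IFNL3 were listed at 0.

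Of 11 genes of nucleic acid sensing, 10 were tested. Under lactate 3 rose and 2 fell. IRF3, the factor that induces interferon, averaged 76.6 ± 13.6 CPM with lactate and 47.3 ± 8.20 CPM in control (0.69, edgeR adjusted p = 0.00371). The adaptor STING1 (0.61, adjusted p = 0.0373) and the helicase DHX58 (0.86, adjusted p = 0.0383) rose, and the kinases TBK1 (-0.53, adjusted p = 0.0224) and EIF2AK2 (-0.57, adjusted p = 0.0108) fell. EIF2AK2, the kinase that halts translation on double-stranded RNA, is itself an interferon-stimulated gene outside the 44, and it averaged 119.6 ± 24.2 CPM with lactate and 177.8 ± 30.8 CPM in control. With both treatments against control IRF3 rose (0.58, edgeR adjusted p = 0.00958) and EIF2AK2 fell (-0.58, adjusted p = 0.00925). PSMB10 (1.19, adjusted p = 0.00194), of the antigen presentation list below, rose there too. Of 7 brakes on the pathway, 6 were tested, and none passed in any comparison. In the list of antigen presentation by class I, HLA-F (1.32, adjusted p = 0.0166) and the proteasome subunit PSMB10 (0.96, adjusted p = 0.00894) rose under lactate. HLA-F was near the floor, with 14, 10, 16 and 10 counts in the lactate libraries and 3, 3, 6 and 9 in control. HLA genes are near-identical to each other and their counts uncertain. HLA-E, TAP2, PSMB8 and PSMB9 were listed at 0, and these zeros are not read as absence. HLA-B, HLA-C, TAP1 and TAPBP had 18, 6, 1 and 16 counts over all libraries. After an offset for GC content, the rises of IRF3, STING1, DHX58, HLA-F and PSMB10 under lactate did not pass (edgeR adjusted p between 0.0596 and 0.182). Of the calls under lactate, STING1 was lost without control replicates 2 or 3 or lactate replicates 3 or 4 (adjusted p between 0.068 and 0.108), and DHX58 without control replicates 1, 2 or 3 or lactate replicates 3 or 4 (between 0.0648 and 0.106). TBK1 was lost without control replicate 3 (0.0608) or lactate replicate 4 (0.0647), and HLA-F without control replicate 1 (0.0542). With I-BET762 against control, and with both treatments against I-BET762 or against lactate, none of the genes reported from these 5 lists passed.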

How the data were processed

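Poly(A)-selected RNA from 16 samples of DU145 cells was sequenced with single-end 75 bp reads from 800 ng of RNA per library, per the labels' protocols. The authors deposited raw counts per gene for every sample in a single table. STAR 2.6.1c, DESeq and the builds GRCh38.p12 and hg38 are listed per the submitters' processing notes. Which program counted the reads, with which annotation and strand option, is not stated in these sources. Names, exon lengths and GC content were taken from GENCODE release 29, which matched 58735 of 64792 identifiers.

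Genes passing filterByExpr (minimum count 10, minimum total 15) were tested with edgeR 4.0.16 in R 4.3.3, with TMM scaling and the quasi-likelihood test on 4 group means (12 residual degrees of freedom). P-values were two-sided, adjusted by the Benjamini-Hochberg method over all 14690 genes and called under 0.05. Fold changes are over the group named as control or comparator, and CPM values are TMM-scaled. Groups came from the treatment field of the samples, and the counts were matched to samples by their titles. DESeq2 1.42.0, limma 3.58.1, other scalings, filters, offsets for GC content and exon length, a replicate block and left-out libraries served as alternatives. The scripts were tested on simulated data.

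The members and the lists were chosen with earlier results of these data known. Values in every library are given for members past the test in at least 1 comparison and for ISG15, IFIT1, MX1, OAS1, STAT2, IRF9 and IRF1. IFI44, MX2, OAS2, DTX3L and PARP14 were added after their values were seen. A result of the antigen presentation list is not reported here.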

Additional observations from a re-analysis of the deposited data

Results flagged for a closer look

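In each group of 4 libraries, the CPM of every tested member was examined for a library whose gap to the nearest of the others was past Dixon's limit as a share of the range of the group. Of 128 pairs of member and group, 6 exceeded it, and chance alone gives about 1 in 20.

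The library labelled control replicate 2 was low for 2 members. IFIT1 stood at 11.001 CPM there, against 23.6 to 24.4 CPM in the other controls, and PARP12 at 34.8 CPM, against 43.5 to 44.9 CPM. OAS3 stood at 73.5 CPM in the library labelled I-BET762 replicate 2, against 49.0 to 51.6 CPM in the others of its group. OAS2 stood at 0.813 CPM in lactate replicate 1, against 1.79 to 1.92 CPM in the other lactate libraries. In replicate 3 of both treatments, HERC5 was low at 36.3 CPM, against 39.2 to 39.7 CPM, and RIGI was high at 32.7 CPM, against 28.2 to 28.9 CPM.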

How the results depend on the processing

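For lactate over control, 7 members passed. The count was 4 without the 2 libraries that HEXIM1 puts in doubt, 2 without lactate replicates 1 and 4 (chosen after seeing the data), and 2 with the groups compared fitted alone, and it ran from 3 to 10 when 1 library was left out. DESeq2 added MX2 and DTX3L, while limma added MX2 and DDX60 and lost IFI35. Of all 14690 genes, DESeq2 called 2348 higher and 1877 lower there, and limma 2288 and 1677. For both treatments over control, 2 passed. The count was 5 with the replicate block, 6 without the doubted libraries, 7 with the groups fitted alone, 10 in limma and 6 in DESeq2, and it ran from 0 to 6 when 1 library was left out. For I-BET762 over control, 0 passed, against 1 with no filter, 3 in limma and 1 in DESeq2, and 0 to 1 when 1 library was left out. For both treatments over I-BET762, 0 passed, against 2 with no filter, 1 with the groups fitted alone and 6 in limma. For both treatments over lactate, 0 passed, against 3 with no filter, 1 without the doubted libraries, 5 in limma and 2 in DESeq2. For the interaction, 0 passed, against 1 with no filter. Left-out libraries and groups fitted alone mean fewer samples; for the other settings the cause was not tested.

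With the replicate block the count for lactate over control was 9, and it was 0 for I-BET762 over control, for both treatments over I-BET762 or lactate, and for the interaction. The replicate numbers were not taken as pairing the samples, because not every same-numbered pair had a correlation of deviations over 0.1. It was over 0.1 in 16 of 24 pairs and under -0.1 in 1. That 1 pair was the doubted libraries, control replicate 2 and I-BET762 replicate 2 (-0.26). The block added DTX3L (-0.51, edgeR adjusted p = 0.0154) and IFIT3 (0.49, adjusted p = 0.0452) under lactate, and IFIH1 (adjusted p = 0.0273), PARP12 (adjusted p = 0.0488) and DTX3L (adjusted p = 0.0225) with both treatments over control. The share of all tested genes called moved with these settings too. For lactate over control it was 23.7% as reported, 28.9% with the block, 17.3% without the doubted libraries, 19.5% without lactate replicates 1 and 4 and 6.33% with the groups fitted alone. With 1 library left out, the fewest genes were called without control replicate 3 (1150 higher and 689 lower of 14876). The most were called without lactate replicate 2 (2660 higher and 2290 lower of 14870). For both treatments over control it was 20.7% as reported, 24.2% with the block, 20.1% without the doubted libraries, 33.5% with the groups fitted alone, 39.3% in limma and 24.3% in DESeq2. For I-BET762 over control it was 0.442% as reported, 1.58% with no filter, 10.1% in limma and 3.59% in DESeq2. Without control replicate 4, where ISG15 passed, edgeR called 277 of 14888 genes higher and 0 lower. For both treatments over I-BET762 it was 4.9% as reported, 2.23% with no filter, 18% with the groups fitted alone and 30.9% in limma. For both treatments over lactate it was 0% as reported, 0.631% with no filter, 0.403% without the doubted libraries, 0.728% in limma and 0.613% in DESeq2. For the interaction it was 0% as reported and 0.0096% with no filter.

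No called member changed sign under any alternative run, and changes of sign among members that had not passed were not counted. Of the 44 members, 12 did not pass the filter on low counts and could not be tested. Among them, 3 are listed at 0 in every library, which is not read as absence.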
